A study of Mus musculus with 24 samples.

Results

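The enzymes described here attach glucuronic acid or sulfate to drugs, steroids, bile acids and other small molecules, or split ester bonds in drugs and lipids. They were taken as the genes whose probe set was annotated with a single symbol of the form Ugt2 or Ugt3 (with a letter and a number), Sult1 to Sult6, or Ces1 to Ces5, with the probe set of the highest mean signal where a gene had several. This gave 40 genes of the 18820 measured, namely 9 UDP-glucuronosyltransferases (UGTs), 15 sulfotransferases (SULTs) and 16 carboxylesterases (CES). A further 12 coding genes of these families, among them Ces2c and Sult2a1, were without a probe set of their own and were not analysed here.

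Whole livers and cultured primary hepatocytes of 8-week-old mice, male per the labels, were profiled on 24 Affymetrix arrays in 8 groups of 3. The controls carried the floxed NEMO gene (NEMOf/f) with no deletion. The other genotypes were NEMOΔhepa, KEAP1Δhepa and NEMOΔhepa/KEAP1Δhepa, called NEMO knockout, KEAP1 knockout and double knockout below. Both genes were deleted in hepatocytes by the Alfp-Cre transgene, which is driven by albumin and alpha-fetoprotein regulatory elements. Whether other cells of the liver, such as those of the bile ducts, kept them was not tested. The control was floxed for NEMO alone per the labels, and no floxed KEAP1 control was among the groups. Hepatocytes were freed with collagenase, kept in culture dishes overnight, with a change of medium on the day after. Each sample came from a mouse, but the labels do not say whether a liver and a hepatocyte sample shared an animal.

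UGTs of the endoplasmic reticulum transfer glucuronic acid from UDP-glucuronic acid, which is made from UDP-glucose by the dehydrogenase Ugdh. SULTs of the cytosol transfer sulfate from the carrier PAPS, which is made by Papss1 and Papss2. Carboxylesterases of the endoplasmic reticulum cleave ester drugs and take part in the turnover of triacylglycerol, and several are abundant in hepatocytes. Ikbkg encodes NEMO, a subunit that the kinase upstream of NF-kB needs for its activation. KEAP1 sends the transcription factor NRF2 to degradation, and NRF2 drives genes of antioxidant defence and conjugation.

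Values are log2 signals, and a difference of 1 on this scale is a doubling of the signal. The array medians lay between 4.03 and 4.23. Ikbkg was at 6.4 to 6.86 in control livers, 6.14 to 6.26 in NEMO knockout livers and 6.18 to 6.47 in double knockout livers, and at 6.63 to 6.69, 6.26 to 6.60 and 6.01 to 6.29 in the same groups of hepatocytes. Keap1 was at 5.88 to 6.35 in control livers, 5.38 to 5.76 in KEAP1 knockout livers and 5.75 to 5.93 in double knockout livers, and at 5.90 to 6.32, 5.73 to 5.91 and 5.62 to 5.87 in hepatocytes. The labels do not say whether these probe sets cover the deleted exons, so the small differences are a weak check of the genotypes. Of the 24 arrays, 4 are held in doubt. The array labelled liver control 3 had 6 NRF2 targets at a mean of 9.99, while the other control livers had 7.0 and 7.18 and the KEAP1 knockout livers 9.52 to 9.75. Liver double knockout 3 carried fat cell markers at a mean of 7.44, against at most 3.68 on any other array, and bile duct markers at 6.37, against at most 4.85. Hepatocyte control 1 and hepatocyte double knockout 3, though labelled male, had Xist signals of 9.65 and 9.76, against 2.0 to 2.98 on the other 22 arrays, with Eif2s3y of the Y chromosome at 2.51 and 2.71. Each result is therefore given with all arrays and without these 4, which leaves 2 arrays in each control and double knockout group. The array labelled liver control 3 was set aside on NRF2 targets, so leaving it out widens by construction any difference that follows those genes. Hepatocyte markers (7 of 8 measured) had a mean of 12.47 to 12.85 on every array.

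The UGT and CES genes gave strong signals and most SULT genes did not. The mean over all arrays was at least 8 for 22 of the 40 genes, or 55.0%, against 11.5% of all 18820 genes. By family it was 8 of 9 UGTs, 3 of 15 SULTs and 11 of 16 CES. Signals of different probe sets depend on their probes as well as on the transcript, so the genes are not ranked by level here. Among the CES, Ces1c, a secreted plasma esterase, lay at 11.73 to 12.42 on all 24 arrays, and Ces3a at 10.79 to 12.14. Among the UGTs, Ugt2b1 lay at 11.09 to 11.96, Ugt2b34 at 10.99 to 11.61 and Ugt2b36 at 10.64 to 11.33, while Ugt2b37 lay at 5.97 to 8.24. The SULTs with a mean of at least 8 were Sult2a8, which sulfates bile acids, Sult1a1, which sulfates phenols, and Sult1d1, which sulfates catechols. Means below 3, in the range of Xist on the arrays where it was low, were found for 9 SULTs and for Ces2f. These SULTs were Sult1c1, Sult1e1 (the oestrogen sulfotransferase), Sult2a6, Sult2b1 (which sulfates cholesterol), Sult3a1, Sult3a2, Sult4a1, Sult6b1 and Sult6b2, and changes that start from such signals are understated.

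**Figure D1:**
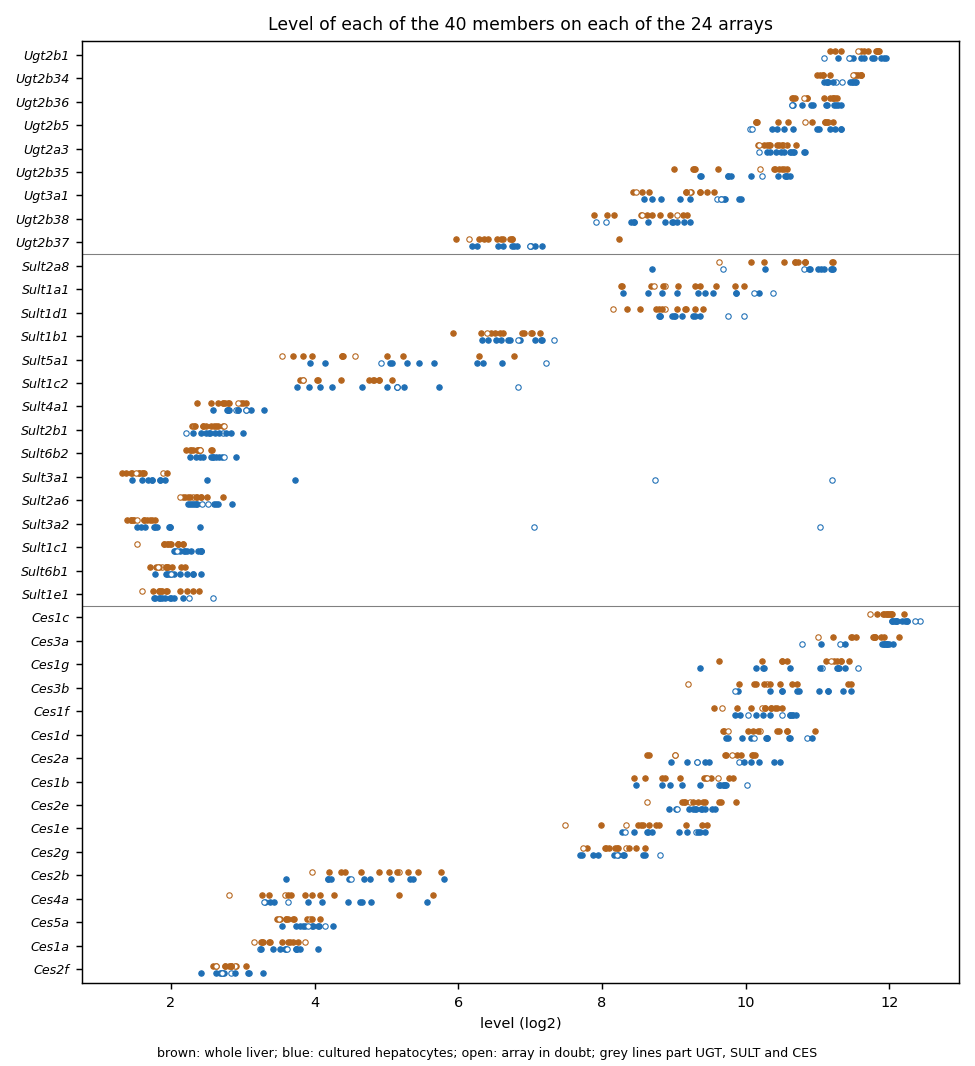
Level (log2) of each of the 40 genes on each of the 24 arrays, grouped by family and ordered within it by mean signal for display. Brown points are whole liver, blue points cultured hepatocytes and open points the 4 arrays in doubt; most UGT and CES genes lie above 8, and Sult3a1 and Sult3a2 reach 11.20 and 11.04 on one open point each.

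The direction of the calls differed by genotype and family. Where KEAP1 was lost, the genes called higher were UGTs, the carboxylesterases Ces1g, Ces1b and Ces2b and, in double knockout livers, Sult1b1 against control and Ces2a against the NEMO knockout. KEAP1 loss alone also gave decreases, for Sult1c2 in hepatocytes and, without the doubted arrays, for Sult5a1, Sult1a1, Ces3b and Ces4a in liver. Without the doubted arrays, Sult5a1, Ces3b and Ces4a were called lower in the NEMO and double knockout livers as well. Where NEMO alone was lost, the calls were nearly all decreases and most of them CES genes. The double knockout hepatocytes had calls in both directions, with 10 genes lower and 3 higher against control with all arrays. Of the lower ones, Ces1e and Ces1f were also called lower in NEMO knockout hepatocytes and Sult1c2 in KEAP1 knockout hepatocytes. The others, among them Sult2a8, Sult5a1 and Ces3a, were called in neither single knockout in that fit. In all, 20 of the 40 genes were called in at least 1 of 10 comparisons of genotypes with all arrays, 24 without the doubted arrays, and 25 in either. The shares of all genes called so were 14.5%, 21.7% and 23.9%. In KEAP1 knockout hepatocytes all 9 UGTs had a positive difference from control, with a median of 0.47, or 0.41 without the doubted arrays, beside 0 over all genes. The medians of the SULTs and CES there were -0.14 and 0.14 with all arrays. In KEAP1 knockout livers all 9 UGTs were again positive, with a median of 0.23, or 0.36 without the doubted arrays, beside -0.01 and -0.03 over all genes. In NEMO knockout livers 8 of 9 UGTs and 12 of 16 CES were negative, with medians of -0.44 and -0.33 beside -0.04, and without the doubted arrays 8 of 9 and 10 of 16 were negative, with medians of -0.20 and -0.35. In NEMO knockout hepatocytes 4 of 9 UGTs were positive and 5 negative, with a median of -0.01 beside -0.02, and 2 were positive and 7 negative without the doubted arrays (median -0.12). In double knockout livers 4 UGTs were positive and 5 negative with all arrays (median -0.05, beside -0.04), and 7 were positive and 2 negative without the doubted arrays (median 0.17). In double knockout hepatocytes 8 of 9 UGTs were positive in both fits (medians 0.22 and 0.32, beside -0.03). A call is an adjusted p under 0.05 in limma, with the Benjamini-Hochberg method over all 18820 genes.

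In liver, the NEMO knockout differed from control in 3 of the 40 genes, all lower, while 1.33% of all genes were called. The falls of Ces2a and Ugt2b38, which are among the 3, were known when the genes were chosen. Once the doubted arrays were left out 13 genes were called, 12 lower and 1 higher, against 12% of all genes. The median difference of the 40 genes was -0.19 with all arrays and -0.20 without those arrays, beside -0.04 and -0.05 over all genes. The count was 0 without liver control 1, liver control 2 or liver NEMO knockout 3, it was 1 without liver NEMO knockout 1 or 2, and 9 without the array labelled liver control 3. In the KEAP1 knockout livers 0 genes were called, as were 0% of all genes. An unadjusted p under 0.05 was found for 8 of the 40, beside 1447 of all 18820 genes. On the remaining 20 arrays 10 were called, 6 higher and 4 lower, against 5.26% of all genes. Leaving out the array labelled liver control 3 alone gave 7, and leaving out any other array of the pair of groups gave 0. In the double knockout livers 0 were called against control, beside 0.00531% of all genes. Of the 40, 17 had an unadjusted p under 0.05, beside 3901 of all 18820 genes. The fit to 20 arrays gave 13, with 7 higher and 6 lower, against 9.20%. The count was 12 without the array labelled liver control 3 alone. With the replicate number as a block this comparison gave 6 genes, all lower. Counts with 1 array left out or with the block are given without the share of all genes called. That share moves with the arrays used too, as from 0% to 5.26% in the KEAP1 knockout livers without the doubted arrays.

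Against the NEMO knockout, the double knockout livers differed in 3 genes, 1 higher and 2 lower, against 1.05% of all genes, and in 13 without the doubted arrays, 9 higher and 4 lower, against 3.46%. With all arrays the count of 3 became 0 without liver NEMO knockout 1, 2 or 3 or liver double knockout 1 or 2, and 4 without liver double knockout 3. Against the KEAP1 knockout, the double knockout livers had 0 genes called with all arrays, beside 0% of all genes, and 0 without the doubted arrays, beside 0.0531%. In both fits 7 of the 40 had an unadjusted p under 0.05, beside 1429 of all 18820 genes with all arrays and 1383 without the doubted arrays.

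In hepatocytes, the NEMO knockout differed from control in 3 genes, all lower, against 6.65% of all genes, and in 4 without the doubted arrays, 3 lower and 1 higher, against 5.58%. The share of the 40 genes called was 7.5% and 10%. The count was 8 without hepatocyte control 2 and 1 without hepatocyte control 3 or hepatocyte NEMO knockout 3. The KEAP1 knockout gave 4 genes, 3 higher and 1 lower, against 1.87% of all genes, and 5 without the doubted arrays, 4 higher and 1 lower, against 1.82%. Without any one of the 3 KEAP1 knockout arrays the count was 0. The double knockout gave 13 genes against control, 3 higher and 10 lower, beside 9.72% of all genes. It was again 13 without the doubted arrays, 4 higher and 9 lower, beside 9.23%, and 12 genes were called in both fits. The count was 7 without hepatocyte double knockout 1 and 5 without hepatocyte double knockout 2.

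The double knockout hepatocytes differed from the NEMO knockout in 4 genes, 2 in each direction, against 3.32% of all genes, and in 9 without the doubted arrays, 4 higher and 5 lower, against 3.80%. The 4 became 0 without hepatocyte NEMO knockout 1, 1 without hepatocyte NEMO knockout 2 or hepatocyte double knockout 2, and 2 without hepatocyte double knockout 1. Against the KEAP1 knockout they differed in 7 genes, all lower, against 2.75% of all genes, and in 8, again all lower, without the doubted arrays, against 3.78%. That 7 became 2 without hepatocyte KEAP1 knockout 1 or 3, and 3 without hepatocyte double knockout 2. These comparisons share their control and double knockout arrays, so they are not separate pieces of evidence.

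**Figure D2:**
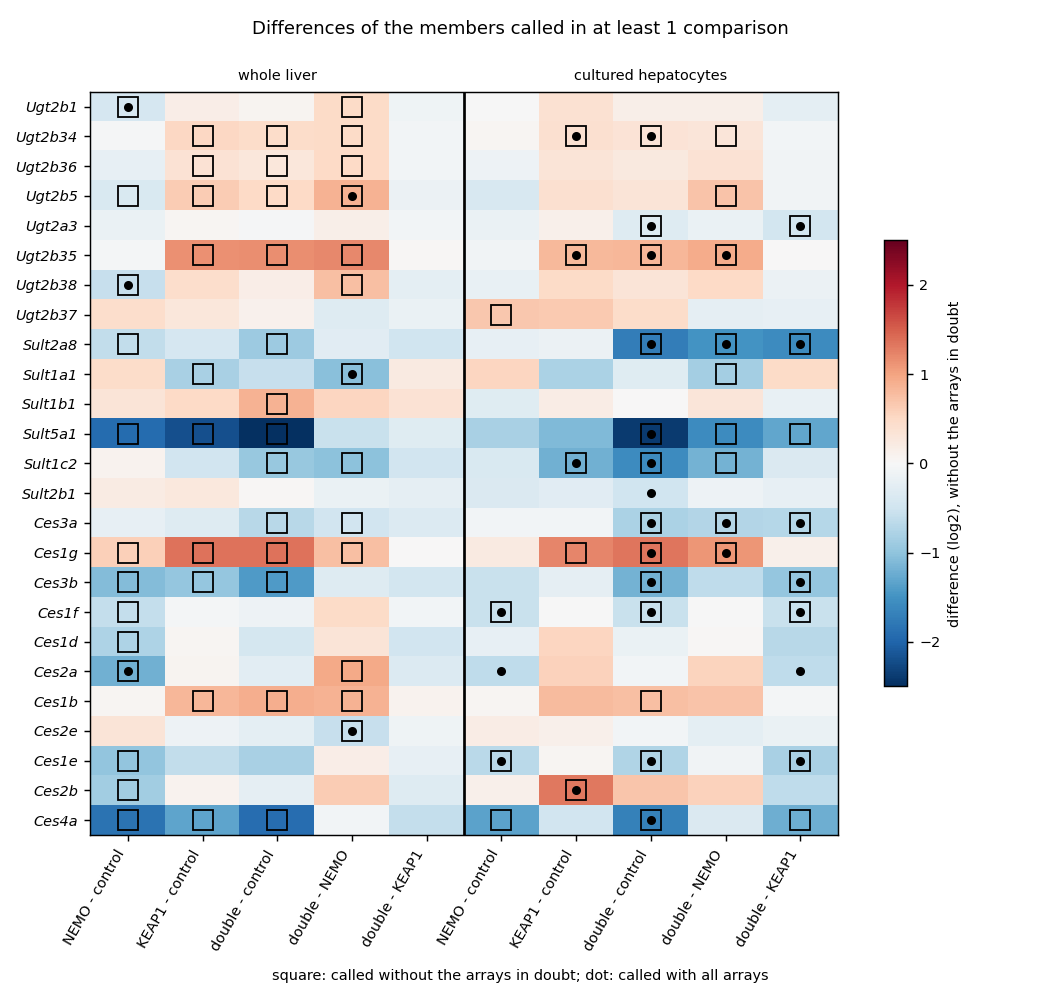
Difference (log2, colour) of the 25 genes called in at least 1 comparison, in 5 comparisons of liver and 5 of hepatocytes, without the 4 arrays in doubt. Squares mark calls without those arrays and dots calls with all arrays; Ces1g and Ugt2b35 are red wherever KEAP1 was lost relative to the reference, and Sult5a1 and Ces4a are blue in all the comparisons with control.

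Among the UGTs, Ugt2b35 moved the most with KEAP1 loss. In liver it was at 9.0 and 9.62 on controls 1 and 2 and at 10.53 on the array labelled liver control 3. The NEMO knockout livers had 9.29, 9.26 and 9.28, the KEAP1 knockouts 10.41, 10.51 and 10.46 and the double knockouts 10.39, 10.58 and 10.20. Without the array labelled liver control 3, every liver lacking KEAP1 lay above every control. The difference from control was 1.14 ± 0.14 (SE) for the KEAP1 knockout and 1.17 ± 0.16 for the double knockout without the doubted arrays (adjusted p = 0.000814 and 0.000908), and 0.74 ± 0.27 and 0.67 ± 0.27 with all arrays (adjusted p = 0.624 and 0.197). Against the NEMO knockout livers the double knockouts were higher by 1.11 ± 0.27 with all arrays (adjusted p = 0.0811) and 1.21 ± 0.14 without those in doubt (adjusted p = 0.000534).

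In hepatocytes Ugt2b35 was at 9.75, 9.38 and 10.07 in controls, 9.37, 9.75 and 9.79 in NEMO knockouts, 10.61, 10.45 and 10.58 in KEAP1 knockouts and 10.56, 10.55 and 10.22 in double knockouts. The groups with and without KEAP1 did not overlap. It was higher than control by 0.81 ± 0.16 in the KEAP1 knockout (adjusted p = 0.0219) and by 0.71 ± 0.16 in the double knockout (adjusted p = 0.0124). The double knockout lay above the NEMO knockout by 0.81 ± 0.16 (adjusted p = 0.0151). All 3 differences were also called without the doubted arrays, at 0.82 ± 0.17, 0.83 ± 0.19 and 0.92 ± 0.17. The first was lost without any one of the KEAP1 knockout arrays (adjusted p up to 0.107). The second was lost without hepatocyte double knockout 1 or 2 (adjusted p up to 0.0638), and the third without either of these or without hepatocyte NEMO knockout 1 (adjusted p up to 0.0704).

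Ugt2b34 rose by less, on a narrow spread. In hepatocytes it was at 11.26, 11.09 and 11.13 in controls, 11.50, 11.54 and 11.52 in KEAP1 knockouts and 11.48, 11.45 and 11.34 in double knockouts. These were differences of 0.36 ± 0.07 (adjusted p = 0.0139) and 0.26 ± 0.07 (adjusted p = 0.0246), with no overlap between the groups. The first call was lost without any one of the KEAP1 knockout arrays (adjusted p up to 0.0662). The second was lost without hepatocyte control 2 or 3 or hepatocyte double knockout 1 or 2 (adjusted p up to 0.0987). In liver it was at 10.99 and 11.17 on controls 1 and 2, 11.60 for the array labelled liver control 3, 11.57, 11.60 and 11.61 in KEAP1 knockouts and 11.54, 11.51 and 11.50 in double knockouts. The differences without the doubted arrays were 0.52 ± 0.08 and 0.45 ± 0.08 (adjusted p = 0.00275 and 0.00654), and with all arrays 0.34 ± 0.12 and 0.26 ± 0.12 (adjusted p = 0.624 and 0.249).

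Ugt2b5 fell with NEMO loss and rose with KEAP1 loss in liver. It was at 10.45 and 10.59 on controls 1 and 2 and 11.14 on the array labelled liver control 3. The NEMO knockout livers had 10.14, 10.14 and 10.16, the KEAP1 knockouts 11.13, 11.21 and 11.11 and the double knockouts 10.92, 11.10 and 10.83. The double knockout livers lay above the NEMO knockouts by 0.80 ± 0.15 with all arrays (adjusted p = 0.025) and 0.86 ± 0.08 without those in doubt (adjusted p = 0.000117). The call with all arrays was lost without any single array of these groups other than liver double knockout 3 (adjusted p up to 0.104). Against control, without the doubted arrays, Ugt2b5 differed by -0.38 ± 0.08 in the NEMO knockout (adjusted p = 0.0121) and by 0.63 ± 0.08 in the KEAP1 knockout (adjusted p = 0.00127). With all arrays these differences were -0.58 ± 0.15 (adjusted p = 0.0704) and 0.42 ± 0.15 (adjusted p = 0.624). In hepatocytes hepatocyte control 1 and hepatocyte double knockout 3, the arrays with high Xist, had 10.06 and 10.09, against 10.66 and 11.02 on the other controls and 11.33 and 10.99 on the other double knockouts.

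Of the other UGTs, Ugt2b1 and Ugt2b38 were lower in the NEMO knockout livers with all arrays. Ugt2b1 was at 11.64, 11.70 and 11.84 in control livers and 11.17, 11.32 and 11.25 in NEMO knockout livers, a difference of -0.48 ± 0.09 (adjusted p = 0.0328). Ugt2b38 was at 8.69, 8.54 and 9.05 and at 8.07, 8.16 and 7.89, a difference of -0.72 ± 0.15 (adjusted p = 0.0441). Neither pair of groups overlapped, and without the doubted arrays the differences were -0.42 ± 0.09 and -0.57 ± 0.14 (adjusted p = 0.00909 and 0.0173). Both calls were lost without any single array of the pair of groups other than the array labelled liver control 3 (adjusted p up to 0.138 and 0.199). Without the doubted arrays, both were higher in double knockout livers than in NEMO knockout livers, by 0.48 ± 0.09 and 0.75 ± 0.14 (adjusted p = 0.00927 and 0.00926), and by 0.42 ± 0.09 and 0.67 ± 0.15 with all arrays (adjusted p = 0.0569 and 0.0666). Ugt2b36 was called higher in the KEAP1 and double knockout livers without the doubted arrays, by 0.36 ± 0.07 and 0.29 ± 0.08 (adjusted p = 0.017 and 0.046), and not with all arrays (0.23 ± 0.12 and 0.04 ± 0.12, adjusted p = 0.667 and 0.861).

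Ugt2a3 was the UGT that fell in double knockout hepatocytes. It was at 10.63, 10.67 and 10.61 in controls, 10.82, 10.66 and 10.81 in KEAP1 knockouts and 10.34, 10.29 and 10.19 in double knockouts. The double knockouts lay below both other groups without overlap. The differences were -0.37 ± 0.07 from control (adjusted p = 0.00441) and -0.49 ± 0.07 from the KEAP1 knockout (adjusted p = 0.00341), and both calls were kept without any one array (adjusted p up to 0.0183 and 0.0212). Ugt2b37 was called once, higher in NEMO knockout hepatocytes without the doubted arrays, by 0.68 ± 0.17 (adjusted p = 0.0326), against 0.42 ± 0.21 with all arrays (adjusted p = 0.304). Its value of 8.24 on liver NEMO knockout 3 stood above all its other values, which reached 7.17. Ugt3a1, whose family uses other sugars than glucuronic acid, was not called in any comparison and lay at 8.43 to 9.93.

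**Figure D3:**
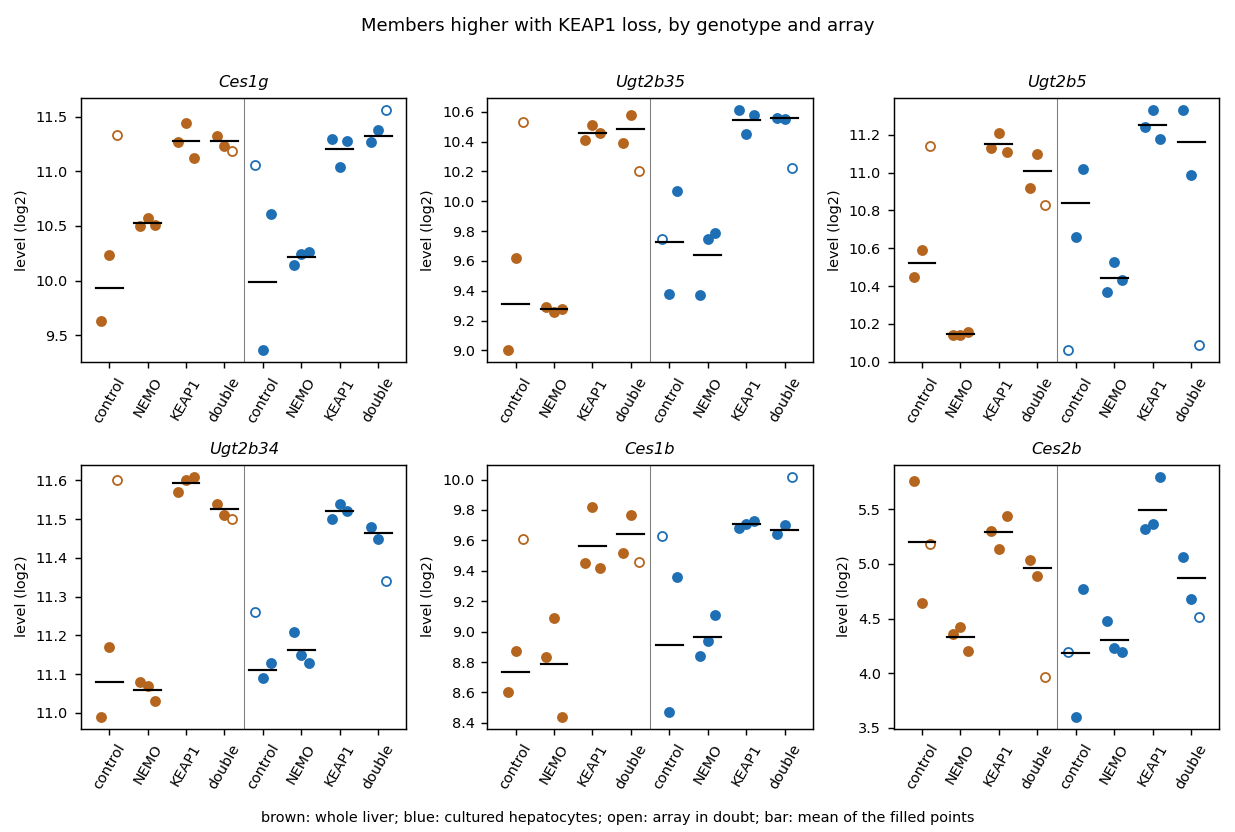
Level (log2) of 6 genes on each array by genotype, in whole liver (brown) and cultured hepatocytes (blue), with open points for the arrays in doubt and bars for the mean of the filled points. Ugt2b35 lies between 10.20 and 10.61 on all 12 KEAP1 and double knockout arrays, and Ces2b stands out in the KEAP1 knockout hepatocytes at 5.32 to 5.80.

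The 8 Ugt2 genes lie on mouse chromosome 5 in the order Ugt2b34, Ugt2b1, Ugt2b35, Ugt2b36, Ugt2b5, Ugt2b37, Ugt2a3 and Ugt2b38, followed by Sult1b1, Sult1d1 and Sult1e1, by the RefSeq genes of assembly GRCm38.p6. The promoters of 4 of them are shown because they share a run of bases next to the start. Ugt2b5, Ugt2b36 and Ugt2b38 were called higher in double knockout than in NEMO knockout livers without the doubted arrays. Ugt2b37 was not called, at a difference of -0.33 that rested on its value of 8.24 on liver NEMO knockout 3 and was 0.36 without that array (adjusted p = 0.83 and 0.364). No test compared the genes with each other. Each sequence is the 250 bases before the RefSeq start on the minus strand, chr5:87140341-87140590 for Ugt2b5, chr5:87424204-87424453 for Ugt2b38, chr5:87254789-87255038 for Ugt2b37 and chr5:87092556-87092805 for Ugt2b36. Capitals mark the longest run of bases shared by all 4, which is 22 bases long.
Ugt2b5: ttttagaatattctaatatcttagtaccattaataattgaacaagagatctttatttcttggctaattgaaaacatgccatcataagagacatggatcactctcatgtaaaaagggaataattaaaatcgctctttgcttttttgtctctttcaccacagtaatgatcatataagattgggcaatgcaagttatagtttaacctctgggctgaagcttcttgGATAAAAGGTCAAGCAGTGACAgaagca
Ugt2b38: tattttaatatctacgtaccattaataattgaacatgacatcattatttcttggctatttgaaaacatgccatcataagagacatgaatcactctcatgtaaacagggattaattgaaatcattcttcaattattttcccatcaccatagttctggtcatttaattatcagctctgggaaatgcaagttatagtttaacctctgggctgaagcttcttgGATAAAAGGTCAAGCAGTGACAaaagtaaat
Ugt2b37: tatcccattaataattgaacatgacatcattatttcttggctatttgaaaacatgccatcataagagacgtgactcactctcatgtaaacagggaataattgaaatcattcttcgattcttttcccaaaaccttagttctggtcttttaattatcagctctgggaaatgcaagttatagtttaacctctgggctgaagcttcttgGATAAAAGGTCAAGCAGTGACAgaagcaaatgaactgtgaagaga
Ugt2b36: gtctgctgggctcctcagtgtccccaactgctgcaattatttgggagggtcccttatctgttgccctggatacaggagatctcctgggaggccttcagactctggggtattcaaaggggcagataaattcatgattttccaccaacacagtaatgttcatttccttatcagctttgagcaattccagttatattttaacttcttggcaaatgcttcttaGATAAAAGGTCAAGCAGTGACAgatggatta
The windows of Ugt2b38 and Ugt2b37 were identical at 84.8% of the columns of a global alignment, those of Ugt2b5 and Ugt2b38 at 81.5% and those of Ugt2b5 and Ugt2b37 at 72.6%, while Ugt2b36 matched the other 3 at 57.6 to 60.8%. The shared run ended 7 bases before the annotated start of Ugt2b5, 10 before those of Ugt2b38 and Ugt2b36 and 24 before that of Ugt2b37.

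Ces1b and Ces1c, from the carboxylesterase cluster on chromosome 8, also share a long run of bases. Ces1b was called higher in KEAP1 and double knockout livers without the doubted arrays. Ces1c was called in no comparison of genotypes, and the 2 genes were not compared by a test. Their windows, chr8:93079941-93080190 and chr8:93131284-93131533 on the minus strand, were identical at 76.2% of alignment columns. Ces1b had another annotated start, with the window chr8:93080018-93080267, and the window closer to that of Ces1c was taken. Capitals mark their longest shared run, of 58 bases.
Ces1b: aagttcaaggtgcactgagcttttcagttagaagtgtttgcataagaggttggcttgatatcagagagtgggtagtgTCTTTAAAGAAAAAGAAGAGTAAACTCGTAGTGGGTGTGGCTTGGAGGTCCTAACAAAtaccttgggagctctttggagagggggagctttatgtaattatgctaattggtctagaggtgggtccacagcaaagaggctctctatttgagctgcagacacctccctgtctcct
Ces1c: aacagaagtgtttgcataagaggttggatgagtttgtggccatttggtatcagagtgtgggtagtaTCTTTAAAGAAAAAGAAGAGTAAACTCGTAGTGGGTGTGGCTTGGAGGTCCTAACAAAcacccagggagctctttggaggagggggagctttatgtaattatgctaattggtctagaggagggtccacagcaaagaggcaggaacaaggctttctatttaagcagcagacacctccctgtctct
NRF2 binds the antioxidant response element, whose core TGACNNNGC was searched on both strands of the 250 bases before each start. It was found in 0 of the 39 windows of the 35 genes that had one, against 10.2% of all 32851 windows in the table and 10.9% of the windows of genes measured here. The absence says only that these letters are not in these windows.

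Among the SULTs, the calls between genotypes were decreases except for Sult1b1. Sult5a1, a sulfotransferase without a well-known substrate, showed the widest range of the family apart from Sult3a1 and Sult3a2. In liver it was at 6.29 and 6.77 on controls 1 and 2 and at 4.56 on the array labelled liver control 3. It was at 4.40, 5.01 and 4.38 in NEMO knockouts, 5.23, 3.96 and 3.83 in KEAP1 knockouts and 3.70, 4.38 and 3.54 in double knockouts. Controls 1 and 2 lay above all the knockout livers, and the array labelled liver control 3 lay among them. The differences without the doubted arrays were -1.93 ± 0.38, -2.19 ± 0.38 and -2.49 ± 0.41 (adjusted p = 0.00658, 0.00658 and 0.00348). With all arrays they were -1.27 ± 0.51, -1.53 ± 0.51 and -2.0 ± 0.51, and none was called (adjusted p = 0.219, 0.624 and 0.134).

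In hepatocytes Sult5a1 was at 7.22, 6.26 and 6.61 in controls, 6.34, 5.07 and 5.45 in NEMO knockouts, 5.66, 5.05 and 5.28 in KEAP1 knockouts and 4.15, 3.94 and 4.92 in double knockouts. The double knockouts lay below all other hepatocyte arrays. The difference from control was -2.36 ± 0.34 with all arrays (adjusted p = 0.000548) and -2.40 ± 0.33 without those in doubt (adjusted p = 0.000758), and it was kept without any one array (adjusted p up to 0.00459). Against the NEMO and KEAP1 knockouts the double knockouts were lower without the doubted arrays (-1.58 ± 0.30 and -1.29 ± 0.30, adjusted p = 0.0129 and 0.0366), but not called with all arrays (-1.28 ± 0.34 and -1.0 ± 0.34, adjusted p = 0.0581 and 0.165).

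Sult2a8 fell in the double knockout hepatocytes. It was at 10.81, 11.19 and 11.22 in controls, 11, 11.09 and 10.88 in NEMO knockouts, 11.20, 10.90 and 11.05 in KEAP1 knockouts and 10.27, 8.70 and 9.68 in double knockouts. The double knockouts did not overlap with any other group. The differences were -1.52 ± 0.28 from control, -1.44 ± 0.28 from the NEMO knockout and -1.50 ± 0.28 from the KEAP1 knockout (adjusted p = 0.00314, 0.013 and 0.0123). They were -1.72 ± 0.34, -1.50 ± 0.31 and -1.57 ± 0.31 without the doubted arrays. The call against control was kept without any one array (adjusted p up to 0.0143), that against the NEMO knockout was lost without hepatocyte NEMO knockout 1 or 2 (adjusted p up to 0.0605) and that against the KEAP1 knockout without hepatocyte KEAP1 knockout 1 or 3 (adjusted p up to 0.0552). In liver it was at 11.20 and 11.22 on controls 1 and 2, 10.69 for the array labelled liver control 3, 10.69, 10.82 and 10.25 in NEMO knockouts and 10.08, 10.53 and 9.63 in double knockouts. Without the doubted arrays the NEMO and double knockout livers differed from control by -0.62 ± 0.16 and -0.91 ± 0.17 (adjusted p = 0.0235 and 0.00686), and with all arrays by -0.45 ± 0.21 and -0.96 ± 0.21 (adjusted p = 0.299 and 0.134).

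Sult1c2 and Sult1a1 were called lower in some of the comparisons with KEAP1 loss. In hepatocytes Sult1c2 was at 6.83, 5.73 and 5.24 in controls, 5.14, 5.0 and 5.14 in NEMO knockouts, 3.92, 4.24 and 4.66 in KEAP1 knockouts and 4.07, 3.75 and 5.15 in double knockouts. It fell by 1.66 ± 0.39 in the KEAP1 knockout and by 1.61 ± 0.39 in the double knockout (adjusted p = 0.0482 and 0.0174), and without the doubted arrays by 1.21 ± 0.22 and 1.57 ± 0.25 (adjusted p = 0.0181 and 0.00154). The KEAP1 call was kept only without hepatocyte control 3 (adjusted p up to 0.193 without another array), and the double knockout call was lost without hepatocyte control 1 or hepatocyte double knockout 1 or 2 (adjusted p up to 0.0944). Sult1a1 was at 9.59, 9.97 and 9.85 in NEMO knockout livers and 8.68, 8.85 and 8.73 in double knockout livers, a difference of -1.05 ± 0.20 (adjusted p = 0.0314). This call was lost without any one of the 6 arrays (adjusted p up to 0.13), and without the doubted arrays the difference was -1.04 ± 0.20 (adjusted p = 0.0148). In KEAP1 knockout livers Sult1a1 was at 9.06, 8.26 and 8.28, against 9.30, 9.37 and 8.88 in controls, with -0.65 ± 0.20 for all arrays (adjusted p = 0.617) and -0.81 ± 0.20 without those in doubt (adjusted p = 0.0422).

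In liver Sult1c2 was at 4.81, 4.90 and 3.83 in controls, 4.90, 5.08 and 4.83 in NEMO knockouts, 4.37, 4.76 and 4.04 in KEAP1 knockouts and 3.80, 4.03 and 3.84 in double knockouts. Its difference in KEAP1 knockout livers was not called in either fit (-0.13 ± 0.26 and, without the doubted arrays, -0.47 ± 0.20, adjusted p = 0.914 and 0.206). In double knockout livers it was -0.62 ± 0.26 with all arrays and -0.94 ± 0.22 without the doubted arrays (adjusted p = 0.206 and 0.0185). In hepatocytes Sult1a1 was at 10.38, 9.55 and 9.34 in controls, 9.87, 10.18 and 9.87 in NEMO knockouts, 8.64, 8.29 and 9.04 in KEAP1 knockouts and 8.83, 9.43 and 10.12 in double knockouts. The KEAP1 knockouts lay below the controls, but the difference of -1.10 ± 0.31 was not called (adjusted p = 0.103, and 0.088 without the doubted arrays). The double knockouts overlapped with the controls (-0.29 ± 0.31, adjusted p = 0.65). Against the NEMO knockout they were not called with all arrays (-0.51 ± 0.31, adjusted p = 0.455) and were called lower without the doubted arrays (-0.84 ± 0.21, adjusted p = 0.0452).

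Sult1b1, which sulfates thyroid hormones, was called higher in double knockout livers without the doubted arrays, by 0.86 ± 0.22 (adjusted p = 0.0287), but not with all arrays (0.37 ± 0.26, adjusted p = 0.431). Its control livers 1 and 2 were at 5.92 and 6.51, the array labelled liver control 3 at 7.01 and the double knockouts at 7.02, 7.13 and 6.4. Sult2b1 was called lower in double knockout hepatocytes (difference -0.50 ± 0.14, adjusted p = 0.0325), at signals of 2.21 to 3.0 that are near background. That call was lost without the doubted arrays (adjusted p = 0.103), and also without hepatocyte control 2 or 3 or hepatocyte double knockout 1 or 3 (adjusted p up to 0.118).

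Sult3a1, an amine sulfotransferase, and its neighbour Sult3a2 on chromosome 10 were high on 2 arrays alone. Sult3a1 was at 11.20 on hepatocyte control 1 and 8.74 on hepatocyte double knockout 3, and Sult3a2 at 11.04 and 7.05. On the other 22 arrays Sult3a1 did not exceed 3.72 and Sult3a2 did not exceed 2.40. The same 2 arrays were those with Xist at 9.65 and 9.76. Female-biased liver genes (6 of 8 measured, Xist among them) had a mean of 9.87 and 8.40 there, against 3.46 to 4.34 on the other hepatocyte arrays. Cyp4a12a, a male-biased cytochrome, was at 2.53 and 4.62 there, against at least 10.93 on the other hepatocyte arrays. Neither Sult3a gene was called in any comparison. Of the 40 genes, 5 were over 1 higher on hepatocyte control 1 than the mean of the other 2 controls, namely Ces1g, Sult1c2, Sult1d1 and both Sult3a genes, and Ces4a was over 1 lower. On hepatocyte double knockout 3 Sult1c2 and both Sult3a genes were over 1 higher than the mean of the other 2 double knockouts, and Ugt2b5 was over 1 lower.

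**Figure D4:**
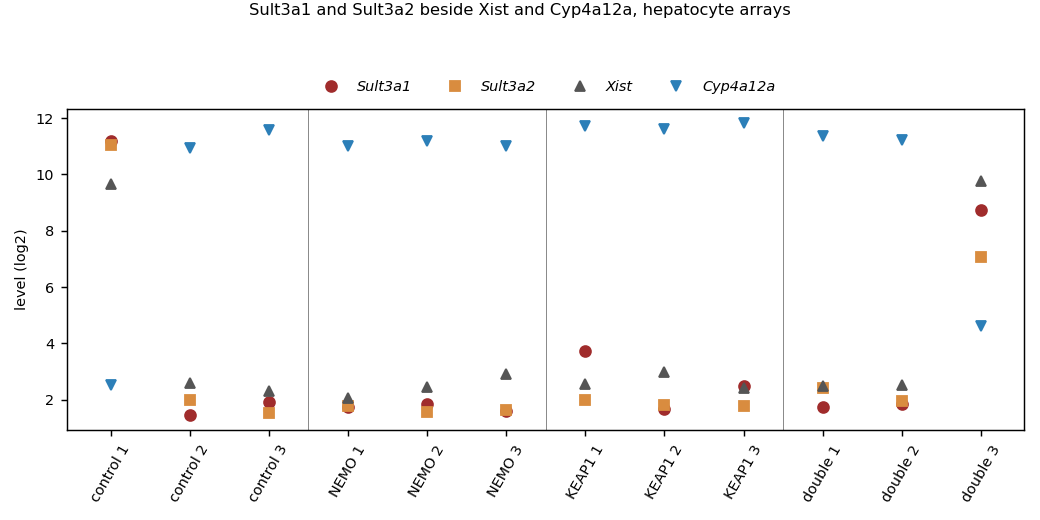
Level (log2) of Sult3a1, Sult3a2, Xist and Cyp4a12a on the 12 hepatocyte arrays, named by genotype and replicate number. On control 1 and double knockout 3 both Sult3a genes and Xist are high and Cyp4a12a is low, at 2.53 and 4.62.

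Among the CES genes, Ces1g, which takes part in hepatic lipid handling, rose with KEAP1 loss. In liver it was at 9.63 and 10.23 on controls 1 and 2 and at 11.33 on the array labelled liver control 3. It was at 10.50, 10.57 and 10.51 in NEMO knockouts, 11.27, 11.44 and 11.12 in KEAP1 knockouts and 11.32, 11.23 and 11.19 in double knockouts. Every liver lacking KEAP1 lay above every NEMO knockout and above controls 1 and 2. Without the doubted arrays the NEMO knockout was higher than control by 0.59 ± 0.15, and the KEAP1 and double knockouts by 1.35 ± 0.15 and 1.35 ± 0.16 (adjusted p = 0.0206, 0.000326 and 0.000455). With all arrays these differences were 0.13 ± 0.30, 0.88 ± 0.30 and 0.85 ± 0.30 (adjusted p = 0.857, 0.624 and 0.159).

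In hepatocytes Ces1g was at 11.06, 9.36 and 10.61 in controls, 10.14, 10.24 and 10.26 in NEMO knockouts, 11.30, 11.04 and 11.28 in KEAP1 knockouts and 11.27, 11.38 and 11.56 in double knockouts. The double knockout was higher than control by 1.06 ± 0.29 (adjusted p = 0.0389) and higher than the NEMO knockout by 1.19 ± 0.29 (adjusted p = 0.0468). The first call was lost without any one double knockout array (adjusted p up to 0.109) and the second without any one of the 6 arrays (adjusted p up to 0.13). Without the doubted arrays the differences were 1.34 ± 0.27 and 1.11 ± 0.25, and the KEAP1 knockout was called too, at 1.22 ± 0.25 (adjusted p = 0.0309) against 0.86 ± 0.29 with all arrays (adjusted p = 0.184).

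Ces1b and Ces2b were also called higher with KEAP1 loss. Ces1b was at 8.60 and 8.87 in control livers 1 and 2, at 9.61 for the array labelled liver control 3, 9.45, 9.82 and 9.42 in KEAP1 knockout livers and 9.52, 9.77 and 9.46 in double knockout livers. The differences without the doubted arrays were 0.83 ± 0.18 and 0.91 ± 0.20 (adjusted p = 0.0208 and 0.0138), against 0.54 ± 0.23 and 0.56 ± 0.23 with all arrays (adjusted p = 0.643 and 0.208). Ces2b was at 4.19, 3.60 and 4.77 in control hepatocytes and 5.32, 5.37 and 5.80 in KEAP1 knockout hepatocytes, without overlap. This was a difference of 1.31 ± 0.25 (adjusted p = 0.0204), and 1.31 ± 0.29 without the doubted arrays (adjusted p = 0.0416). The call was lost without any one KEAP1 knockout array (adjusted p up to 0.073). In liver Ces2b was not higher in KEAP1 knockouts, at 5.30, 5.14 and 5.44 against 5.76, 4.64 and 5.18 in controls (difference 0.10 ± 0.29). In NEMO knockout livers it was at 4.36, 4.42 and 4.20, and was called lower than control without the doubted arrays but not with all arrays.

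Ces2a, a hydrolase of acylglycerols and ester drugs, fell in the NEMO knockout. In liver it was at 9.88, 10.09 and 9.81 in controls, 8.66, 9.02 and 8.63 in NEMO knockouts, 10.13, 10.10 and 9.93 in KEAP1 knockouts and 9.72, 9.71 and 9.02 in double knockouts. The NEMO knockouts lay below all controls, and the double knockouts also lay below the controls but were not called (difference -0.44 ± 0.18, adjusted p = 0.192). The NEMO knockout differed from control by -1.16 ± 0.18 (adjusted p = 0.0124), and by -1.21 ± 0.12 without the doubted arrays (adjusted p = 0.000225). The call with all arrays was lost without liver control 1 or 2 or liver NEMO knockout 3 (adjusted p up to 0.0763). The double knockout was above the NEMO knockout by 0.71 ± 0.18 (adjusted p = 0.0881), and by 0.95 ± 0.12 without the doubted arrays (adjusted p = 0.00116). In hepatocytes Ces2a was at 9.90, 9.49 and 10.07 in controls and 9.18, 8.96 and 9.32 in NEMO knockouts, a difference of -0.67 ± 0.18 (adjusted p = 0.0391). That call was lost without the doubted arrays (adjusted p = 0.0783), and without any single array of the pair of groups other than hepatocyte control 2 (adjusted p up to 0.148). Ces2a was at 10.48, 10.39 and 10.18 in KEAP1 knockout hepatocytes and 9.98, 9.43 and 9.32 in double knockouts, a difference of -0.77 ± 0.18 (adjusted p = 0.0352). It was -0.64 ± 0.19 without the doubted arrays (adjusted p = 0.0867), and was kept in the other fits only without hepatocyte double knockout 1 (adjusted p up to 0.174).

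Ces1e, known as egasyn, which holds beta-glucuronidase in the endoplasmic reticulum, was lower in hepatocytes without NEMO, alone or with KEAP1. It was at 9.31, 9.07 and 9.43 in controls, 8.64, 8.62 and 8.44 in NEMO knockouts, 9.37, 9.18 and 9.33 in KEAP1 knockouts and 8.69, 8.28 and 8.32 in double knockouts. All 6 arrays without NEMO lay below all 6 with it. The NEMO and double knockouts differed from control by -0.70 ± 0.12 and -0.84 ± 0.12, and the double knockout from the KEAP1 knockout by -0.86 ± 0.12 (adjusted p = 0.00346, 0.000645 and 0.00338). All 3 calls were kept without any one array (adjusted p up to 0.018, 0.00521 and 0.0213) and without the doubted arrays. Ces1f, a triacylglycerol hydrolase, followed the same order at 10.50, 10.61 and 10.70 in controls, 10.14, 10.24 and 9.92 in NEMO knockouts, 10.65, 10.62 and 10.66 in KEAP1 knockouts and 10.34, 9.85 and 10.03 in double knockouts. Its differences were -0.50 ± 0.11, -0.53 ± 0.11 and -0.57 ± 0.11 (adjusted p = 0.0175, 0.0092 and 0.0183). These calls were lost, in turn, without hepatocyte control 3 or hepatocyte NEMO knockout 3 (adjusted p up to 0.0735), without hepatocyte double knockout 2 (adjusted p = 0.0511), and without any KEAP1 knockout array or hepatocyte double knockout 2 (adjusted p up to 0.10). In liver both were called lower in the NEMO knockout without the doubted arrays (-0.98 ± 0.21 and -0.59 ± 0.13), and not with all arrays (adjusted p = 0.377 and 0.139).

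Ces3b and Ces3a fell in the double knockout hepatocytes. Ces3b was at 10.50, 11.14 and 11.47 in controls, 11.15, 10.74 and 11.36 in KEAP1 knockouts and 10.34, 9.89 and 9.85 in double knockouts, which lay below both groups. It differed by -1.01 ± 0.23 from control and by -1.06 ± 0.23 from the KEAP1 knockout (adjusted p = 0.0128 and 0.0273). The first call was lost without hepatocyte control 3 or hepatocyte double knockout 2 (adjusted p up to 0.0635). The second was lost without hepatocyte KEAP1 knockout 1 or 3 or hepatocyte double knockout 2 or 3 (adjusted p up to 0.137). Ces3a was at 11.31, 11.97 and 12.05 in controls, 11.97, 11.92 and 11.95 in NEMO knockouts, 12, 11.90 and 11.92 in KEAP1 knockouts and 11.38, 11.05 and 10.79 in double knockouts. Its differences were -0.70 ± 0.17, -0.87 ± 0.17 and -0.86 ± 0.17 from the 3 other groups (adjusted p = 0.0186, 0.0142 and 0.0169). Each was lost without hepatocyte double knockout 2, among others (adjusted p up to 0.0759, 0.056 and 0.0838), and each was called without the doubted arrays, at -0.79 ± 0.10, -0.73 ± 0.09 and -0.72 ± 0.09. In liver Ces3b was at 11.46 and 11.43 on controls 1 and 2 and at 10.30 on the array labelled liver control 3, and no knockout liver exceeded 10.71. Its differences in NEMO, KEAP1 and double knockout livers were -1.09 ± 0.15, -0.96 ± 0.15 and -1.42 ± 0.17 without the doubted arrays (adjusted p = 0.000991, 0.00422 and 0.000436), and -0.70 ± 0.30, -0.58 ± 0.30 and -1.32 ± 0.30 with all arrays (adjusted p = 0.252, 0.665 and 0.134).

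Ces4a, whose substrates are little known, was lower in every knockout liver than on controls 1 and 2. It was at 5.65 and 5.18 there, at 3.58 on the array labelled liver control 3, at 3.86, 3.63 and 3.26 in NEMO knockouts, 3.96, 4.27 and 4.07 in KEAP1 knockouts and 3.67, 3.36 and 2.81 in double knockouts. The differences without the doubted arrays were -1.84 ± 0.21, -1.31 ± 0.21 and -1.90 ± 0.23 (adjusted p = 0.000382, 0.0047 and 0.000562), against -1.22 ± 0.42, -0.70 ± 0.42 and -1.52 ± 0.42 with all arrays (adjusted p = 0.159, 0.685 and 0.134). In hepatocytes the double knockout, at 3.38, 3.44 and 3.30, was below control, at 3.63, 4.63 and 5.57, by -1.24 ± 0.36 (adjusted p = 0.0475). With 1 array left out, that call was kept only without hepatocyte control 1, the array with high Xist (adjusted p up to 0.139 without another array). Without the doubted arrays the difference was -1.69 and was called. The NEMO knockouts, at 4.10, 3.90 and 3.31, were also called lower than control in that fit (-1.33), but not with all arrays (-0.84). The KEAP1 knockouts, at 4.66, 4.78 and 4.46, were not called against control in either fit. Ces2e was lower in double knockout than in NEMO knockout livers, at 9.14, 9.16 and 8.62 against 9.66, 9.63 and 9.87 (difference -0.75 ± 0.14, adjusted p = 0.0284). It was lost without any one of these arrays other than liver double knockout 3 (adjusted p up to 0.133), and was -0.57 ± 0.10 without the doubted arrays. Ces1d, a triacylglycerol hydrolase, was lower in NEMO knockout livers without the doubted arrays (-0.77 ± 0.15, adjusted p = 0.00676), and not called with all arrays (-0.65 ± 0.17, adjusted p = 0.0839).

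**Figure D5:**
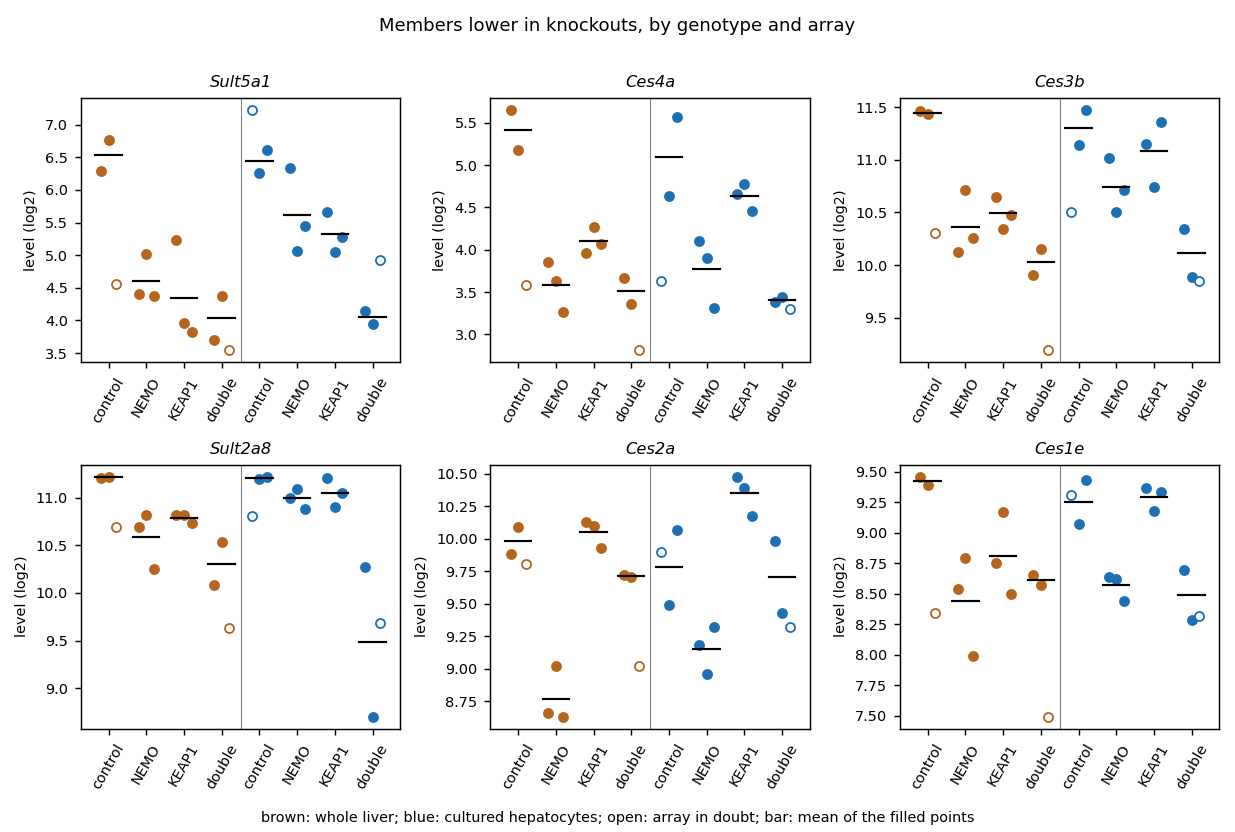
Level (log2) of 6 genes called lower in a knockout, on each array by genotype, in whole liver (brown) and cultured hepatocytes (blue), with open points for the arrays in doubt and bars for the mean of the filled points. The open point of the liver controls lies near the knockouts for Sult5a1, Ces4a, Ces3b and Ces1e, and the double knockout hepatocytes are lowest for Sult5a1 and Sult2a8.

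The array labelled liver control 3 lay closest to the mean of the KEAP1 knockout livers for 17 of the 40 genes and to that of the double knockouts for 13, and closest to that of liver controls 1 and 2 for 4, with liver double knockout 3 left out. Markers of other liver cells moved with the genotypes as well. In hepatocyte cultures stellate cell markers (7 of 7 measured) had a mean of 4.51 to 4.87 in controls, 5.99 to 6.25 in NEMO knockouts, 5.07 to 5.15 in KEAP1 knockouts and 5.73 to 5.96 in double knockouts. Macrophage markers (6 of 6) had 5.84 to 6.98, 7.86 to 8.39, 6.82 to 7.63 and 8.23 to 8.70, and endothelial markers (5 of 5) 5.54 to 6.46, 7.45 to 7.74, 7.10 to 7.65 and 7.83 to 7.96. In liver stellate cell markers had 7.54 to 8.15 in NEMO knockouts, against 5.96 and 6.25 on controls 1 and 2, and the array labelled liver control 3 had 7.19. Male-biased liver genes (8 of 8) had a mean of 10.15 and 10.22 on hepatocyte controls 2 and 3, 9.90 to 10.14 in NEMO knockouts, 10.11 to 10.31 in KEAP1 knockouts and 8.70 and 7.82 on double knockouts 1 and 2. In liver they had 10.46 and 10.51 on controls 1 and 2, and 8.5 to 9.86 over the knockouts. The part of these in the decreases of SULT and CES genes was not tested. Fewer hepatocytes in a sample and less of a transcript per hepatocyte cannot be told apart here.

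The genes that supply UDP-glucuronic acid rose with the UGTs, and those that supply PAPS did not pass the test. Ugdh was at 10.75, 10.40 and 10.92 in control hepatocytes, 11.55, 11.54 and 11.48 in KEAP1 knockouts and 11.63, 11.73 and 11.51 in double knockouts, which is 0.83 ± 0.12 and 0.93 ± 0.12 higher (adjusted p = 0.00213 and 0.000203). Ugp2, which makes UDP-glucose, and Slc35d1, which carries UDP-glucuronic acid into the endoplasmic reticulum, were higher in KEAP1 knockout hepatocytes by 0.77 ± 0.16 and 0.48 ± 0.11 (adjusted p = 0.0321 and 0.0415). Slc35d1 lost that call without the doubted arrays (adjusted p = 0.0914). These 3 genes were all called in KEAP1 and double knockout hepatocytes with all arrays, and in KEAP1 and double knockout livers without the doubted arrays, but 0 of 3 in those livers with all arrays, at differences of 0.36 to 1.01. Of the 5 measured genes listed for the sulfation cofactor, Papss1, Papss2, Bpnt1, Slc35b2 and Slc35b3, none passed the test in the 10 comparisons of genotypes. The lowest adjusted p was that of Bpnt1, which does not make PAPS, in double against NEMO knockout livers without the doubted arrays (0.053). Among 10 other conjugating and hydrolysing enzymes, 2 were called higher and 0 lower in double knockout against control hepatocytes with all arrays, and 2 higher and 1 lower without the doubted arrays, where 9.72% and 9.23% of all genes were called. Among 8 nuclear receptors and other transcription factors of the liver, 4 were called lower and 0 higher in that comparison in both fits, beside the same shares of all genes.

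Control hepatocytes differed from control livers in 3 of the 40 genes with all arrays, 2 higher and 1 lower, against 5.13% of all genes. They were Sult1c2 (1.42 ± 0.36, adjusted p = 0.0199), Sult2b1 (0.50 ± 0.12, adjusted p = 0.0188) and Ces2b (-1.01 ± 0.29, adjusted p = 0.0481). Without the doubted arrays 0 were called, against 3.06% of all genes. An unadjusted p under 0.05 was found for 7, a count that is not set beside one over all genes here. The count was 0 without the array labelled liver control 3 and 1 without hepatocyte control 1 or 2. The median difference of the 40 genes was 0.05 with all arrays, beside 0.02 over all genes.

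Whether the genotypes acted differently in liver and in hepatocytes was tested directly, as the change in liver minus that in hepatocytes. For NEMO loss 0 of the 40 genes were called, beside 0.0691% of all genes, and 0 without the doubted arrays, beside 0.0638%. For KEAP1 loss it was 0, beside 0%, and 0 without the doubted arrays, beside 0.0106%. For the step from the NEMO to the double knockout it was 0, beside 0%, and 0 without the doubted arrays, beside 0.0159%. With all arrays 6, 5 and 5 of the 40 had an unadjusted p under 0.05, counts that are not set beside those over all genes here. The largest differences without the doubted arrays were those of Ces2b under KEAP1 loss, with -1.22, Sult2a8 in the step from the NEMO to the double knockout, with 1.22, and Sult5a1 under NEMO loss, with -1.11. A gene called in 1 tissue and not in the other is therefore not shown to differ between them.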

How the data were processed

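RNA of whole liver and of cultured hepatocytes was measured on 24 arrays, 3 in each of 8 groups, and the groups follow the labels. Each probe set had a log2 value that the authors deposited after RMA, a background correction, quantile normalization and summary of probes, named in the submitters' processing notes. No version, scan date or batch was given. Probe sets numbered 35556, of which 21218 had one gene symbol, 1881 several and 12457 were not listed. The probe set with the highest mean stood for each of 18820 genes. No filter on level was applied.

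The tests were two-sided and used lmFit and eBayes with a trend (limma 3.58.1, R 4.3.3), on the 12 arrays of a tissue, or on all 24 for comparisons between tissues, with Benjamini-Hochberg adjustment over all genes at 0.05. The fits were checked on simulated data. P-values measure the spread between 3 samples a group, so the number of arrays limits the precision. The members, gene lists and doubted arrays were chosen with earlier results of these data known, and the falls of Ces2a and Ugt2b38 in NEMO knockout livers were among those results. Members called in a comparison are named with their values, apart from some calls without the doubted arrays. Those and the members not called are given by counts.

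Replicate numbers were checked as pairs by correlating deviations from the group means. Every pair exceeded 0.1 only for double knockout against control livers (0.115, 0.136 and 0.23), where the third pair joins doubted arrays; the pairing comes from these correlations and not from the labels. Alternatives were a replicate block, quantile normalization, the mean of a gene's probe sets, genes at or above the median level, only the groups compared, each array left out, and the 4 doubted arrays left out. Promoter windows are RefSeq's, aligned with Biopython 1.88.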

Additional observations from a re-analysis of the deposited data

Results flagged for a closer look

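In 2 genes every knockout array of liver moved one way and every one of hepatocytes the other. Ces2f differed between KEAP1 knockout and control by -0.12 in liver and 0.38 in hepatocytes. The difference of these changes was -0.51 ± 0.15, not called by limma with all arrays (adjusted p = 0.688) or without the doubted arrays (adjusted p = 0.376). Sult2b1 differed between NEMO knockout and control by 0.22 in liver and -0.31 in hepatocytes. That difference was 0.53 ± 0.18, again not called (adjusted p = 0.345, and 0.222 without the doubted arrays). Both genes had mean signals below 3. How many of all genes show such a pattern was not counted, so the flag is not a result about these enzymes.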

How the results depend on the processing

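Counts of the 40 genes called moved by over 1.5 times as follows. The shares of all genes called are given above for the fits without the 4 doubted arrays and not for the other fits. The counts therefore show how the calls depend on the fit and not a trait of the 40 genes. Without the 4 doubted arrays the count was 13 for NEMO knockout, 10 for KEAP1 knockout and 13 for double knockout against control livers, 13 for double against NEMO knockout livers, 9 for the same in hepatocytes and 0 for control hepatocytes against livers. With the replicate block, where replicate numbers are treated as pairs, it was 7 for NEMO knockout livers, 6 for double knockout livers against control and 6 against the NEMO knockout; in the other comparisons the block moved no count by that much. With only the groups compared it was 1 for NEMO knockout livers, 6 for double against NEMO knockout livers, 0 for KEAP1 knockout hepatocytes, 6 for double knockout hepatocytes against control and 8 against the NEMO knockout, and 0 for control hepatocytes against livers. Among genes at or above the median level it was 7 for double against NEMO knockout hepatocytes. Leaving out each array in turn gave 0 to 9 for NEMO knockout, 0 to 7 for KEAP1 knockout and 0 to 12 for double knockout against control livers, and 0 to 4 for double against NEMO knockout livers. In hepatocytes it gave 1 to 8, 0 to 5 and 5 to 13 for the same knockouts against control, 0 to 5 for double against NEMO knockout and 2 to 7 for double against KEAP1 knockout. Control hepatocytes against livers gave 0 to 4. Where other than fewer arrays were used, the cause was not tested. Of the 94 differences named by gene and comparison, 90 kept their side of the threshold under quantile normalization, 79 with the block and 34 without the doubted arrays, where 54 more were called and 6 were lost. No difference called with all arrays turned its sign in these fits, but some not called with all arrays did. Among the latter were Ces1g in NEMO knockout livers and Ugt2b36 in double knockout livers, both called without the doubted arrays. Over the 40 genes and 10 comparisons of genotypes, 51 of 400 differences had the opposite sign without the doubted arrays, and 0 of the 51 were called in either fit. Sult3a1 in KEAP1 knockout hepatocytes was one of these, at -2.22 with all arrays and 0.95 without the doubted arrays. With 1 array left out, Ces1g in NEMO knockout livers, 0.13 with all arrays, ranged from -0.25 (without liver control 1) to 0.59 (without liver control 3). Ugt2b36 in double knockout livers, 0.04 with all arrays, ranged from -0.04 (without liver double knockout 2) and -0.02 (without liver control 1 or 2) to 0.18 (without liver control 3). For Ugt2b37 in double against NEMO knockout livers, a fit without liver NEMO knockout 3, chosen after seeing the data, turned -0.46 to 0.24, and 0.36 without the doubted arrays as well.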
